A study of Mus musculus with 6 samples.

Results

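The genes described here encode phosphatases and an inhibitor that oppose phosphoinositide 3-kinase (PI3K) signalling. They are Phlpp1, Phlpp2, Inppl1, Inpp5d, Inpp5e, Inpp4a, Inpp4b, Synj1, Synj2 and Pik3ip1. Their probe sets were those for which the array annotation gave exactly 1 gene symbol and that symbol was one of these names. This selected 24 of 45037 non-control probe sets, for 10 of 18193 genes. The cells were 344SQ, a single murine lung cancer line, and carried either an shRNA against PIK3CA or a control shRNA, with 3 Affymetrix arrays per group. Both groups were grown in serum, and the shRNA vectors were delivered by lipid transfection. The labels give neither the number of hairpins nor whether each replicate was its own culture. The p-values therefore rest on a spread between arrays that may be technical.

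Class I PI3K adds a phosphate to the 3-position of membrane phosphoinositides and makes PI(3,4,5)P3, the lipid that brings the kinase AKT to the membrane. The 5-phosphatases of the SHIP type convert this lipid to PI(3,4)P2, and the 4-phosphatases Inpp4a and Inpp4b then remove the 4-phosphate. The PHLPP phosphatases act later, on the phosphorylated AKT protein, and Pik3ip1 is a membrane protein that binds the p110 catalytic subunit and inhibits it. The synaptojanins and Inpp5e belong to the same 5-phosphatase family, and the synaptojanins are best known for acting on PI(4,5)P2. The comparison asks whether the transcripts of these genes differed when the gene for p110-alpha, Pik3ca, was knocked down.

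The arrays had median intensities of 134.6 to 135.0 on a linear scale and shared the same minimum and maximum. Pik3ca, the target, was lower in the PIK3CA shRNA arrays: its representative probe set read 1235 ± 14.3 in PIK3CA shRNA cells and 2380 ± 63.6 in control shRNA cells (SD, n = 3 each), 51.9% of control (limma adjusted p = 0.000754). Of its other 5 probe sets, 4 lay at 47.6% to 61.0% of control. The fifth, near the array medians, was level at 135 ± 16.5 in PIK3CA shRNA cells and 140 ± 45.5 in control shRNA cells (SD, n = 3 each). Of 8 epithelial markers, the keratin genes Krt8, Krt18, Krt19 and Krt7 and the cadherin gene Cdh1 were bright. Krt8 read 12469 ± 124 in PIK3CA shRNA cells and 11904 ± 320 in control shRNA cells (SD, n = 3 each). Epcam, Cldn4 and Cldn7 read far lower, at means of 368, 99.2 and 117 in PIK3CA shRNA cells and 467, 82.2 and 156 in control shRNA cells. Of the 8, 0 passed limma and 2 had an unadjusted p under 0.05, where 11.5% and 25.9% of all genes did. These 2 were Epcam and Krt7, both lower in PIK3CA shRNA cells. Krt7 read 8939 ± 79.2 in PIK3CA shRNA cells and 10424 ± 193 in control shRNA cells (SD, n = 3 each; limma adjusted p = 0.0535). The lung lineage genes Nkx2-1, Sftpc and Scgb1a1 read below the array medians. Their means were 102, 90.2 and 16.1 in PIK3CA shRNA cells and 116, 94.2 and 24.0 in control shRNA cells. The surfactant protein gene Sftpb read 1389 ± 70.6 in PIK3CA shRNA cells and 1223 ± 87.4 in control shRNA cells (SD, n = 3 each). Each change below is the PIK3CA shRNA mean less the control shRNA mean of log2(intensity + 16). The added 16, a pseudocount, understates the change of dim probe sets.

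Of the 10 genes, each read through its brightest probe set, 1 was lower and 1 was higher in PIK3CA shRNA cells in the limma fit over all genes at adjusted p 0.05. These were Phlpp1 and Inppl1. Over all genes 11.5% passed, 5.87% higher and 5.63% lower, and a count of 2 in 10 genes is no result about the group against that background. Their median change was -0.07, against -0.01 over all genes, and 4 of the 10 changes were positive. When every probe set was tested separately, 0 of the 24 passed limma, where 4.95% of all probe sets did. At an unadjusted p under 0.05 there were 4 of 24, beside 9019 of all 45037. The groups did not overlap in 3 higher and 1 lower of the 24, where this held for 27.3% of all probe sets (13.0% higher and 14.2% lower).

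**Figure D1:**
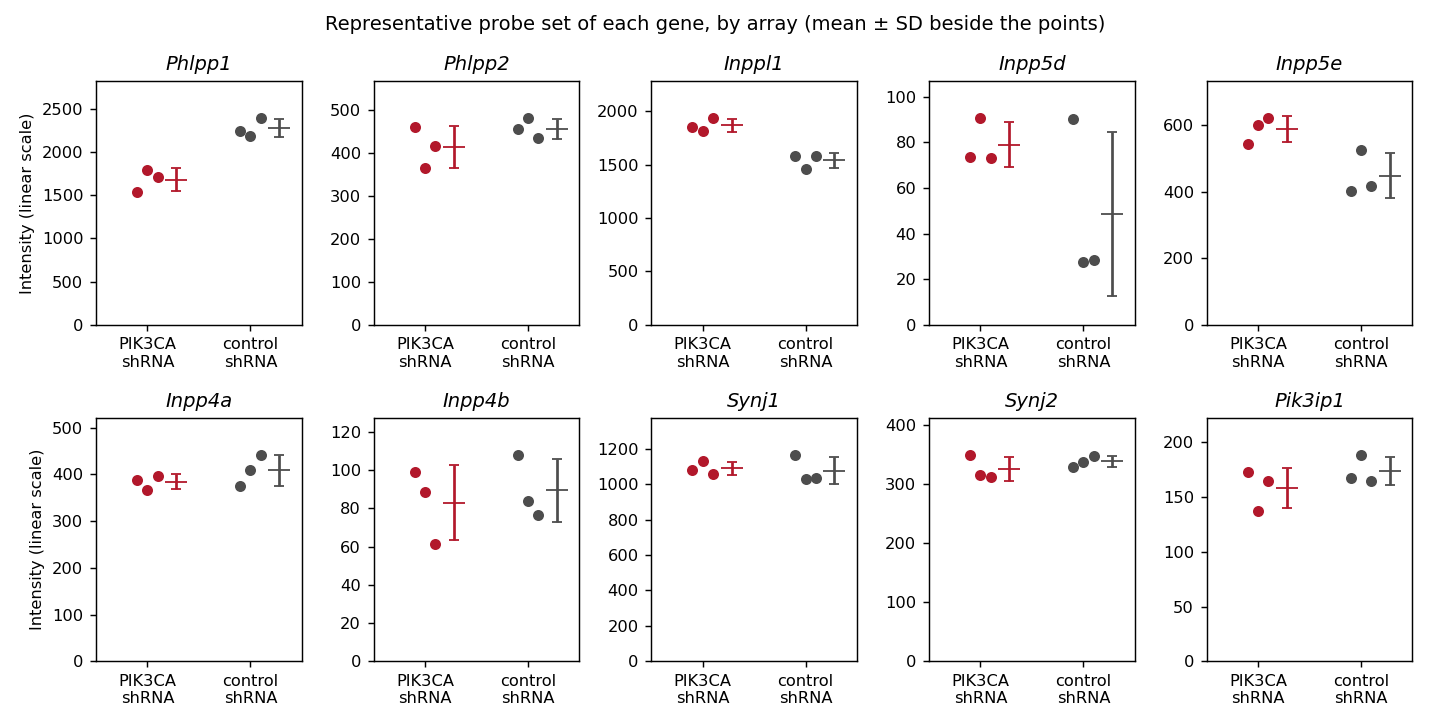
Linear intensity of the representative probe set of each gene on each of the 3 PIK3CA shRNA arrays (red) and the 3 control shRNA arrays (grey), with the mean and SD beside the points and every axis starting at 0. The groups separate for Phlpp1 (PIK3CA shRNA at most 1795, control shRNA at least 2189), Inppl1 and Inpp5e, and overlap for the other genes.

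Among the phosphatases of AKT itself, Phlpp1 fell. PHLPP1 removes the phosphate from the hydrophobic motif of AKT and so reduces its activity. Its probe set 1426994_at read 1536, 1795 and 1709 in PIK3CA shRNA cells, against 2249, 2189 and 2392 in control shRNA cells. Every PIK3CA shRNA array lay below every control shRNA array. In RNA from a whole culture, fewer expressing cells and less RNA per cell cannot be told apart. The mean was 73.8% of control, a change of -0.44 with a standard error of 0.08 and a 95% interval of -0.64 to -0.23 (limma adjusted p = 0.0278 over genes and 0.0547 over probe sets). An exact two-sided permutation test gave 0.1, the smallest p that 3 arrays against 3 allow. Only 1 probe set reads Phlpp1, so no second one bears on the fall. The call over genes was lost without PIK3CA shRNA replicate 1 (adjusted p = 0.0715) or replicate 3 (0.0844), and without control shRNA replicate 1 (0.0825), replicate 2 (0.0722) or replicate 3 (0.0875), with changes between -0.46 and -0.37.

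Phlpp2, the paralogue that acts on the same AKT site, showed no such separation. It read 460, 364 and 416 in PIK3CA shRNA cells, against 454, 480 and 434 in control shRNA cells. The groups overlapped, because 1 PIK3CA shRNA array lay inside the control range. The change was -0.14 with a 95% interval of -0.39 to 0.11 (limma adjusted p = 0.457). A second, dim probe set of Phlpp2 averaged 59.6 ± 15.6 in PIK3CA shRNA cells and 55.2 ± 7.57 in control shRNA cells (SD, n = 3 each). Tested directly, the change of Phlpp1 minus that of Phlpp2 was -0.30 with a standard error of 0.18, and the exact permutation p was 0.2 (0.667 adjusted over 4 paralogue pairs). As the smallest p this test can give here is 0.1, it could not have passed 0.05.

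The promoter of Phlpp1 is shown because this gene had the smallest adjusted p of the 10, and both promoters of Inppl1 because it was the only member that passed as higher. The 250 bases before each transcription start are given from RefSeq (GRCm38.p6), 5′ to 3′ on the gene's strand, with CpG pairs in capitals. The windows are chr1:106171619-106171868 (plus strand) for Phlpp1, chr7:101838227-101838476 (minus strand) for the first start of Inppl1 and chr7:101837825-101838074 (minus strand) for its second start.
Phlpp1: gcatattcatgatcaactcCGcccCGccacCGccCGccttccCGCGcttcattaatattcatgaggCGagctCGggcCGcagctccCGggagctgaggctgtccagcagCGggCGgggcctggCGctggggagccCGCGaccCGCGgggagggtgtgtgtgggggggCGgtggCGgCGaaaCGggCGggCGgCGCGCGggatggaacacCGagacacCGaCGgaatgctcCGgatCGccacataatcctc
Inppl1 first start: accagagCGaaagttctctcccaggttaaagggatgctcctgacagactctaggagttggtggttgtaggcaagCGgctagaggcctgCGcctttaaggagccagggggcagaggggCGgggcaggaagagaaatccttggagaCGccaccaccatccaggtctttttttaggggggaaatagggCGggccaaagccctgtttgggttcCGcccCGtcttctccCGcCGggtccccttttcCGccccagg
Inppl1 second start: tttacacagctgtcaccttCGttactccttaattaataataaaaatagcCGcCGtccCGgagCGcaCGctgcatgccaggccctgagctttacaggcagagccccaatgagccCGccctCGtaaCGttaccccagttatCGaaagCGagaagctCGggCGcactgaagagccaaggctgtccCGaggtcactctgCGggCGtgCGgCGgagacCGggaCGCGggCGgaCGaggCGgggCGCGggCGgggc
The Phlpp1 stretch holds 31 CpG pairs, and those of Inppl1 hold 11 and 27. Counted over RefSeq windows of 300 bases (250 before and 50 after the start), Phlpp1 had 42 CpG pairs, more than 97.0% of the 32851 windows in the table, whose median was 7. Synj2, Inpp5d and Pik3ip1 had no window above that median, with 6, 6 and 7 CpG pairs. All 10 genes matched a promoter entry, with 16 windows between them. The forkhead core TGTTTAC, the kind of sequence that FOXO factors downstream of AKT recognise, was in 0 of the 16 windows on either strand, and in 3.65% of all windows. No match says only that these letters are not in these windows.

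Of the enzymes that remove the 5-phosphate, Inppl1 was higher in PIK3CA shRNA cells at a p close to the threshold. It encodes SHIP2, the widely expressed SHIP phosphatase. Its single probe set 1460394_a_at read 1854, 1816 and 1936 in PIK3CA shRNA cells, against 1578, 1460 and 1582 in control shRNA cells. No array of one group reached the range of the other. The mean was 121% of control and the change 0.28 with a standard error of 0.06 and a 95% interval of 0.12 to 0.44 (limma adjusted p = 0.0494 over genes and 0.103 over probe sets). Leaving out any 1 of the 6 arrays ended this call: the adjusted p was 0.128, 0.0950 and 0.149 without PIK3CA shRNA replicates 1, 2 and 3, and 0.108, 0.133 and 0.104 without control shRNA replicates 1, 2 and 3.

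**Figure D2:**
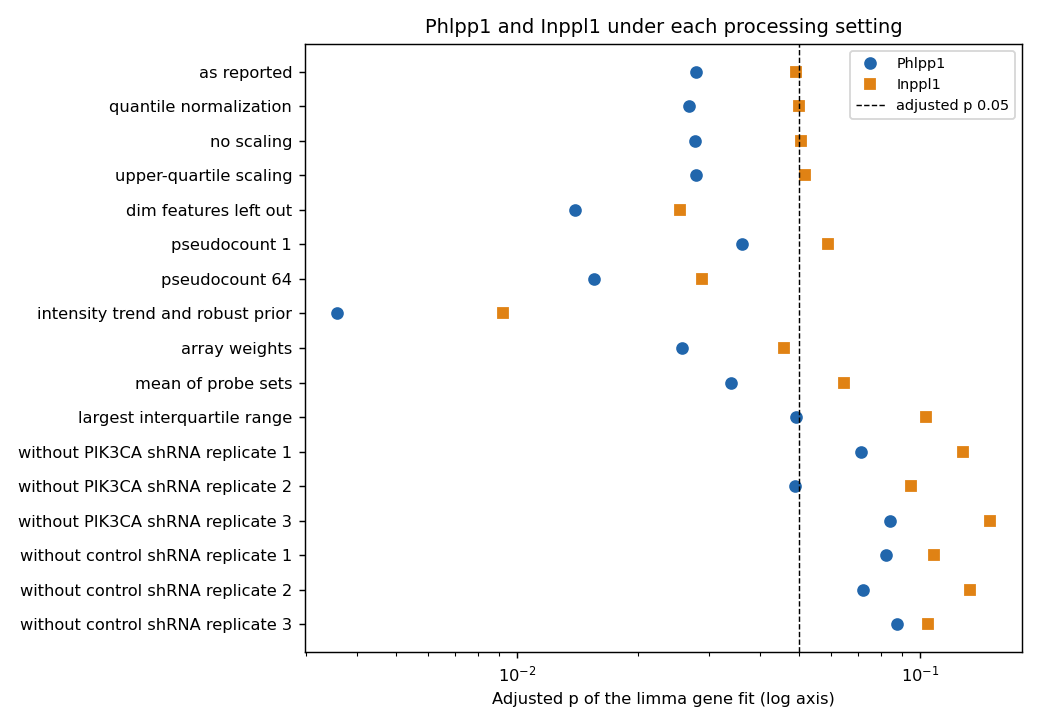
Adjusted p of Phlpp1 (circles) and Inppl1 (squares) in the limma fit over genes, as reported and under alternative settings (rows), on a log axis with the 0.05 threshold dashed. The threshold of 0.01 and the fit with a replicate block (limma adjusted p = 0.103 for Phlpp1 and 0.130 for Inppl1) are not plotted. Phlpp1 is at 0.0278 and Inppl1 at 0.0494 as reported; Inppl1 lies right of the threshold without any 1 array, and Phlpp1 does so in each case but the removal of PIK3CA shRNA replicate 2 (0.0490).

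Inpp5e, a 5-phosphatase of the primary cilium, read higher on its brighter probe set without passing the test. That probe set gave 545, 600 and 621 in PIK3CA shRNA cells, against 402, 525 and 418 in control shRNA cells. The ranges did not overlap, although the lowest PIK3CA shRNA array and the highest control shRNA array were close. The change was 0.39 with a 95% interval of 0.09 to 0.69 (limma adjusted p = 0.107). The other Inpp5e probe set was nearly level, at 276 ± 8.32 in PIK3CA shRNA cells and 269 ± 17.3 in control shRNA cells (SD, n = 3 each). Without control shRNA replicate 2, the highest control array, the brighter probe set had a change of 0.50 and limma adjusted p = 0.0497. Without any other 1 array its change lay between 0.32 and 0.44, with limma adjusted p of 0.157 to 0.253.

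Inpp5d encodes SHIP1, the SHIP phosphatase of blood cells, and its signal was dim here. The brighter of its 2 probe sets read 73.6, 90.6 and 73.0 in PIK3CA shRNA cells, against 90.2, 27.5 and 28.4 in control shRNA cells. A single control array was as high as the PIK3CA shRNA arrays and the others were far lower. The change was 0.68 with a 95% interval of -0.23 to 1.60 (limma adjusted p = 0.320). Without control shRNA replicate 1, the high control array, it was 1.11 with limma adjusted p = 0.0156. Without any other 1 array it lay between 0.46 and 0.73, with limma adjusted p of 0.431 to 0.565. The second probe set did not share this direction, at 50.4 ± 22.8 in PIK3CA shRNA cells and 55.4 ± 15.0 in control shRNA cells (SD, n = 3 each). With no detection calls in the table, such levels cannot be told from background. Of 10 leukocyte markers, 9 were measured, with none at 0. Their summed intensity was 725 to 859 in PIK3CA shRNA cells and 753 to 964 in control shRNA cells. Among the 9, 0 passed limma and 1 had an unadjusted p under 0.05, where 11.5% and 25.9% of all genes did. That 1 was Cd79a, lower at 22.5 ± 15.1 in PIK3CA shRNA cells against 54.2 ± 10.7 in control shRNA cells (SD, n = 3 each). The pan-leukocyte gene Ptprc read 58.6 ± 7.42 in PIK3CA shRNA cells and 63.2 ± 28.7 in control shRNA cells (SD, n = 3 each). Csf1r and Adgre1 read above the array medians, at means of 287 and 181 in PIK3CA shRNA cells and 295 and 172 in control shRNA cells.

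Synj1 and Synj2 encode the synaptojanins, which join a 5-phosphatase to a second phosphoinositide phosphatase domain and act in the uncoating of endocytic vesicles. Neither gene changed past the test. Synj1 read 1080, 1130 and 1055 in PIK3CA shRNA cells, against 1165, 1027 and 1035 in control shRNA cells, so the groups were intermixed. Its change was 0.02 with a 95% interval of -0.17 to 0.20 (limma adjusted p = 0.911). Synj2 read 349, 315 and 312 in PIK3CA shRNA cells, against 329, 338 and 348 in control shRNA cells. Here too the arrays overlapped, and the change was -0.05 with a 95% interval of -0.22 to 0.11 (limma adjusted p = 0.681). The difference between the changes of Synj2 and Synj1 was -0.07 with a standard error of 0.10 (exact permutation p = 0.5).

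The synaptojanin genes had the most probe sets, 4 for Synj1 and 6 for Synj2. Beside the representative one, 2 Synj1 probe sets had changes of -0.09 and -0.04, while a dim one gave 13.0, 46.7 and 83.1 in PIK3CA shRNA cells, against 12.3, 11.4 and 29.9 in control shRNA cells. That dim probe set spread more within the PIK3CA shRNA group than between the groups (change 0.78, 95% interval -0.40 to 1.97). Among the other Synj2 probe sets, the changes ran from -0.20 to 0.75. The one at 0.75 was dim as well, at 66.1 ± 20.4 in PIK3CA shRNA cells and 35.9 ± 27.8 in control shRNA cells (SD, n = 3 each). All 10 synaptojanin probe sets had overlapping groups.

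The 4-phosphatase genes also stayed below the threshold. Inpp4a, which encodes the first of these PI(3,4)P2 phosphatases, read 388, 367 and 397 in PIK3CA shRNA cells, against 376, 408 and 442 in control shRNA cells. Its groups overlapped, with a change of -0.08 and a 95% interval of -0.28 to 0.11 (limma adjusted p = 0.579). A dim second probe set read 31.9 ± 13.2 in PIK3CA shRNA cells and 52.3 ± 15.1 in control shRNA cells (SD, n = 3 each).

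Inpp4b, known as a tumour suppressor in human epithelial cancers, was the member whose probe sets differed most. Its representative probe set 1457359_at read 98.8, 88.6 and 61.3 in PIK3CA shRNA cells, against 108, 84.0 and 76.4 in control shRNA cells, and these ranges overlap. The other, 1441416_at, read 78.3, 76.7 and 46.3 in PIK3CA shRNA cells, against 36.7, 9.67 and 16.1 in control shRNA cells. On this probe set every PIK3CA shRNA array was higher, but 2 of the control values lie at about the pseudocount or below it. The changes were -0.10 (95% interval -0.57 to 0.37) for the first and 1.22 (95% interval 0.45 to 1.98) for the second, with limma adjusted p of 0.827 and 0.0945 over probe sets. The change of Inpp4b minus that of Inpp4a, by their representative probe sets, was -0.02 with a standard error of 0.27 (exact permutation p = 1).

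Pik3ip1, the inhibitor that binds PI3K directly, was level on both probe sets. The representative one read 173, 137 and 164 in PIK3CA shRNA cells, against 167, 188 and 165 in control shRNA cells. These groups overlap, with a change of -0.12 and a 95% interval of -0.38 to 0.13 (limma adjusted p = 0.527). The second averaged 159 ± 37.2 in PIK3CA shRNA cells and 155 ± 12.2 in control shRNA cells (SD, n = 3 each).

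The dim probe sets were measured less evenly than the others. The mean of the group means was below 64 for 8 of the 24 probe sets, whose changes ran from -0.52 to 1.22 with standard errors of 0.09 to 0.48. For the other 16 the changes lay between -0.44 and 0.39, with standard errors of 0.07 to 0.20. The ranges of the standard errors overlap: the dimmest probe set, of Synj2 at 9.65 ± 2.37 in PIK3CA shRNA cells and 7.84 ± 0.63 in control shRNA cells (SD, n = 3 each), had one of 0.09, on a scale where the pseudocount compresses such values.

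**Figure D3:**
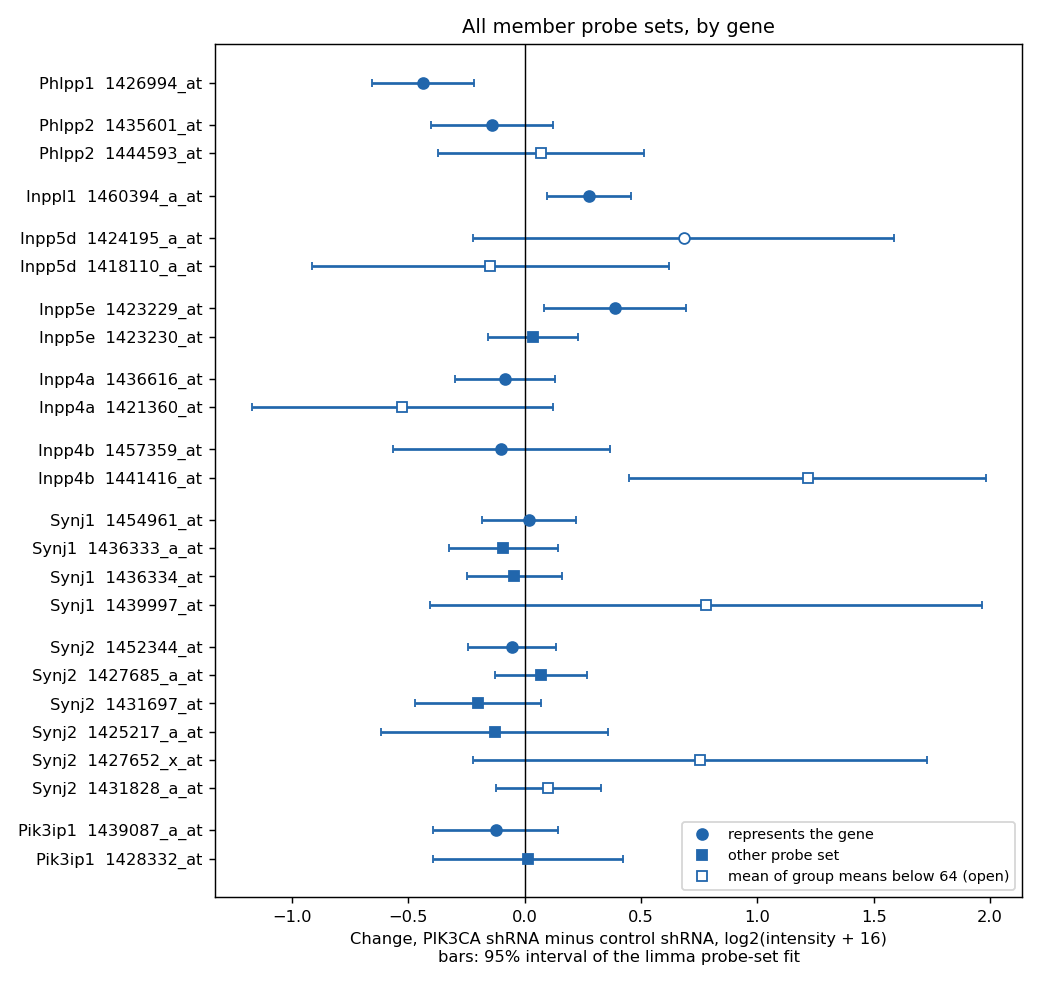
Change of each of the 24 probe sets, as the difference PIK3CA shRNA less control shRNA of log2(intensity + 16), with the 95% interval of the limma fit over probe sets. Circles represent the gene, squares are its other probe sets, and open symbols are dim; the widest intervals belong to open symbols, and the interval lies off 0 for Phlpp1 (-0.44), Inppl1 (0.28), 1 of 2 Inpp5e probe sets (0.39) and 1 of 2 Inpp4b probe sets (1.22).

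The genes beside the members on their chromosomes gave a local reference. The 5 measured genes on each side of Phlpp1 had a median change of 0.08 (range -0.37 to 0.33), with 1 of the 10 higher and 0 lower by limma. Around Inppl1 the median was 0.07 (range -0.55 to 0.58), with 0 higher and 1 lower. Around Inpp5e it was 0.24, the neighbourhood furthest above 0 among the 10 members, with 1 higher. Around Inpp4b it was -0.21, the furthest below 0, with 3 of 10 neighbours lower. Around each of the other members at most 2 of 10 were higher (Inpp5d) and at most 2 lower (Phlpp2). Over all genes 5.87% were higher and 5.63% lower by limma. The part of chromosomal position in the members' values was not tested.

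By the root mean square difference of the 6 gene-centred log2 values, the genes whose pattern over the arrays lay closest to Phlpp1 were Rfwd3 (0.03), Lrrc8c (0.03) and Pnpla6 (0.04). They changed by -0.43, -0.44 and -0.41, with limma adjusted p of 0.0380, 0.0159 and 0.0161. With 2 groups, such a likeness mostly restates an equal shift between them.

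Other genes of phosphatase families and inhibitors were read in lists. Of 20 further genes of the phosphoinositide phosphatase families, 0 rose and 2 fell by limma over all genes. This was 10.0%, against 11.5% of all genes, and the median change was 0.00, against -0.01. The 2 that fell were myotubularins, which remove the 3-phosphate from endosomal phosphoinositides. Mtmr6 read 2608, 2891 and 2735 in PIK3CA shRNA cells, against 3347, 3486 and 3446 in control shRNA cells, and Mtmr7 read 737, 709 and 687 in PIK3CA shRNA cells, against 855, 1004 and 906 in control shRNA cells. The groups were apart in both, with changes of -0.32 (adjusted p = 0.0336) and -0.37 (adjusted p = 0.0422). A further 2 of the other 3 Mtmr6 probe sets, and the second of Mtmr7, also had all PIK3CA shRNA arrays below all control shRNA arrays, at 80.1% to 82.0% of control. Leaving out any 1 array ended both calls, with adjusted p between 0.0542 and 0.106 for Mtmr6 and between 0.0639 and 0.132 for Mtmr7. The remaining 18 lay between -0.29 for Inpp5a and 0.25 for Inpp5f, whose product has a phosphatase domain of the Sac type.

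None of 14 subunits of PP2A, the phosphatase that acts on the activation loop of AKT, passed limma, while 5 had an unadjusted p under 0.05 (25.9% of all genes did). The catalytic subunit genes Ppp2ca and Ppp2cb were at 0.02 and -0.18. The widest change was in the regulatory subunit gene Ppp2r3a, at 171 ± 15.1 in PIK3CA shRNA cells and 264 ± 59.1 in control shRNA cells (SD, n = 3 each; limma adjusted p = 0.0877).

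Among 18 inhibitors that act on PI3K, AKT or mTOR by other means, 2 rose and 1 fell (16.7%, beside 11.5% of all genes), and the median change was -0.08. Tsc1, which with Tsc2 restrains mTOR complex 1, read 1051, 1070 and 1086 in PIK3CA shRNA cells, against 682, 619 and 746 in control shRNA cells. This separation was the widest in the list relative to its error (change 0.64, standard error 0.08, limma adjusted p = 0.00983), and Tsc1 was the only gene of the 3 whose call outlasted the removal of each array in turn. Its partner Tsc2 was at -0.08 (adjusted p = 0.551). Ddit4l, an inducible mTOR inhibitor, read 264, 226 and 256 in PIK3CA shRNA cells, against 147, 130 and 183 in control shRNA cells (change 0.65, limma adjusted p = 0.0345). Its paralogue Ddit4 was at -0.20 (adjusted p = 0.0809). Sesn1, a sestrin that restrains mTOR complex 1 when leucine is scarce, read 1057, 1030 and 1121 in PIK3CA shRNA cells, against 1452, 1360 and 1396 in control shRNA cells (change -0.39, limma adjusted p = 0.0186). A dim Tsc1 probe set had overlapping groups, at 23.2 ± 1.16 in PIK3CA shRNA cells and 19.8 ± 7.47 in control shRNA cells (SD, n = 3 each). So did a Ddit4l probe set, at 129 ± 20.2 in PIK3CA shRNA cells and 97.3 ± 26.6 in control shRNA cells (SD, n = 3 each). In the remaining probe sets of both genes all PIK3CA shRNA arrays were higher. When 1 array was left out, the Ddit4l call was lost except without control shRNA replicate 3. The Sesn1 call was lost except without PIK3CA shRNA replicate 3. Sesn1 also lost its call as a mean over its probe sets (change -0.22, limma adjusted p = 0.183) and when read through its most variable probe set, by interquartile range (adjusted p = 0.492), and in 2 of its 4 probe sets the groups overlapped.

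**Figure D4:**
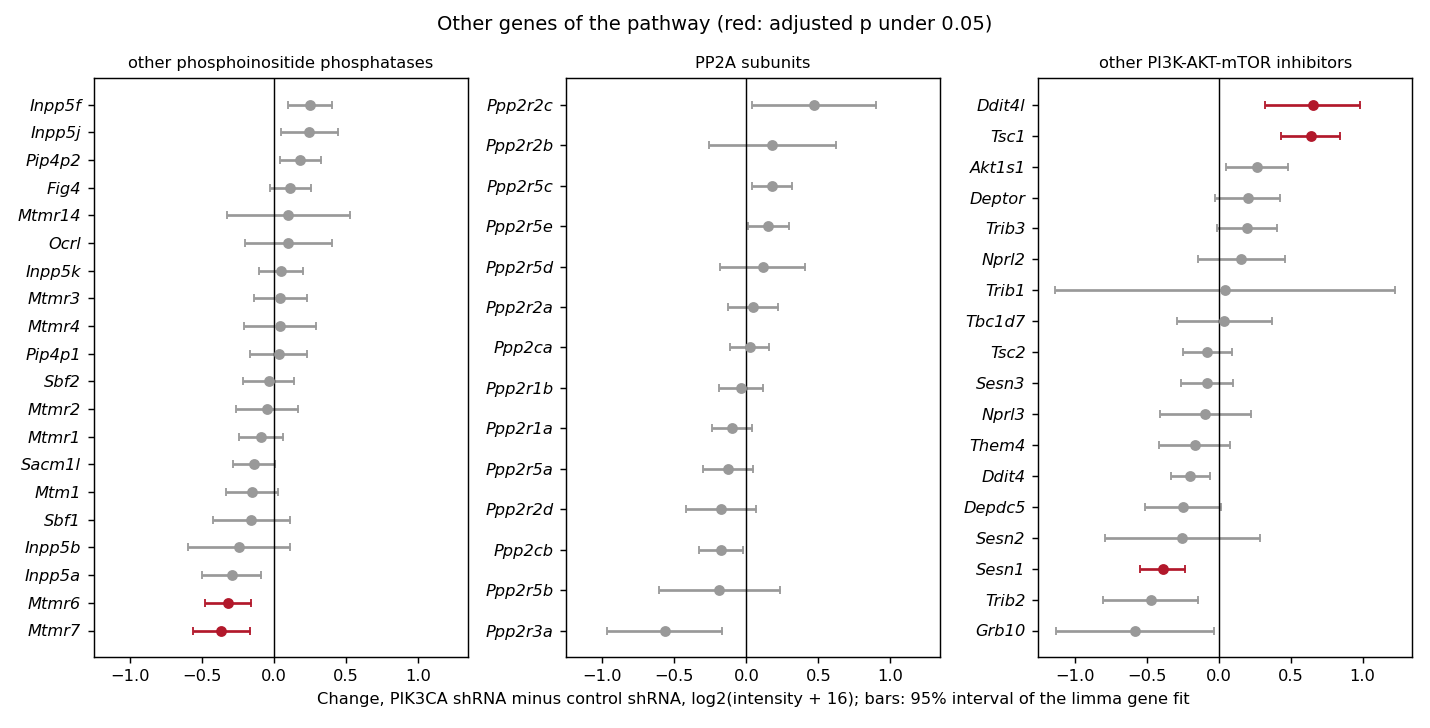
Change of each gene of the 3 lists, as the difference PIK3CA shRNA less control shRNA of log2(intensity + 16), with the 95% interval of the limma fit over genes; red marks an adjusted p under 0.05. Mtmr6 and Mtmr7 are red on the lower side of the first list, no PP2A subunit is red, and Tsc1, Ddit4l and Sesn1 are red in the third.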

How the data were processed

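The authors' deposited table gives linear intensities, 1 value per probe set and array, for 6 samples hybridised to Affymetrix mouse arrays with a biotin label, per the labels' protocols. The 6 columns share their minimum and maximum and have nearly equal quartiles, which points to a shared distribution set by the authors before deposit; how they did so is not stated in the labels. No detection calls are in the table. The number of arrays limits the precision.

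Each array was divided by its relative median and log2(intensity + 16) was computed. Tests omitted the 64 control probe sets. Names came from the platform annotation and were looked up in RefSeq (GRCm38.p6), which changed 0 symbols. Of the probe sets, 34945 had 1 symbol, 932 several and 9160 none listed. A gene was represented by its probe set with the highest mean log2 value. The fit over all 6 arrays used limma 3.58.1 under R 4.3.3 (lmFit, eBayes, two-sided, Benjamini-Hochberg over all genes or all probe sets, threshold 0.05), and single values by exact permutation over the 20 assignments. A simulation of 18193 genes shifted 77, 61 and 62 of them by 0.5, 1 and 2 on the log2 scale. The fit found 24.7%, 60.7% and 82.3% of these, and 10 of its 117 calls were false. The data gave 2092 calls over genes, and the Benjamini-Hochberg cut-off depends on how many genes change. The simulated rates therefore do not give the recovery or the false calls of the fit of the data.

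All members and their probe sets were named, with Pik3ca, list genes past the threshold and the 3 genes closest in pattern. Ppp2r3a, Ppp2r5c, Inpp5a, Inpp5f, Tsc2, Ddit4 and marker genes were named after their values were seen. The members and lists were chosen with earlier results of these data known. Alternatives covered normalization, pseudocount, dim features, probe set choice, prior, weights, threshold, a replicate block and leaving out each array. Figures used matplotlib 3.10.9 in Python 3.11.15.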

Additional observations from a re-analysis of the deposited data

How the results depend on the processing

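Pik3ca kept its direction and call under all 18 alternatives (-1.06 to -0.74), and neither Phlpp1, Inppl1 nor a called gene of the 3 lists changed sign under any of those run. Phlpp1 stayed between -0.49 and -0.37, and Inppl1 between 0.24 and 0.30, but their calls were lost in 7 and 13 of the 18. Deviations of same-numbered arrays from their group means had r of 0.06, -0.01 and -0.02. For different numbers r ran from -0.06 to 0.07. With 3 arrays per group this cannot settle whether the replicate numbers pair the samples. The fit with a replicate block is therefore given as an alternative. It left 410 genes, 185 probe sets and 0 calls among member genes, further phosphoinositide phosphatases or other inhibitors. Other counts that moved by over 1.5 times are given next.

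With an intensity trend and robust prior, 3192 genes and 4672 probe sets passed, with 2 member probe sets (Phlpp1 and Inppl1), 4 further phosphatases, 3 PP2A subunits and 5 other inhibitors. At adjusted p 0.01 there were 635 genes, 591 probe sets, 0 member genes, 0 further phosphatases and 1 other inhibitor (Tsc1). With dim features left out 3776 probe sets, 2 member probe sets and 4 further phosphatases passed. A pseudocount of 64 gave 3639 probe sets and 2 member probe sets, and a pseudocount of 1 gave 1 member gene and 1 further phosphatase. With no scaling, upper-quartile scaling, a mean over probe sets, or the probe set of largest interquartile range, 1 member gene (Phlpp1) passed. The last 2 settings gave 0 further phosphatases. The last gave 1 PP2A subunit, Ppp2r5c, as lower, although its brightest probe set was higher in the fit as reported (change 0.18). Leaving out 1 array gave 953 to 1138 genes, 731 to 1015 probe sets, 0 to 1 member genes, 0 to 1 member probe sets, 0 further phosphatases, 0 PP2A subunits and 1 to 2 other inhibitors. The lower counts at adjusted p 0.01 and with fewer arrays follow from how those settings are built; the cause of the other shifts was not tested.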
